A study of Mus musculus with 6 samples.

Results

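The genes described here are 37 macrophage genes of the liver, taken by symbol from a table of 24501 genes. They fall into 5 classes by known role: 13 genes of resident Kupffer cells, 12 genes shared by most macrophages, 3 genes of lipid-associated macrophages, 4 genes of monocytes and recruited cells, and 5 genes of the Ms4a family. Whole-liver RNA-seq was made from 6 male C57BL/6J mice, 11 weeks old, all homozygous for a floxed Gata4 allele (Gata4 fl/fl) and all fed a Western diet for 3 weeks. The 3 Gata4LKO mice had received AAV8-Tbg-Cre at 8 weeks of age, a virus whose Tbg promoter directs Cre to hepatocytes and not to macrophages. The 3 Control mice had received an empty AAV8, so they lacked Cre as well as the deletion, and Cre expression and loss of Gata4 cannot be told apart. The mice had fasted for 6 h. Another of the labels gives euthanasia 7 days after injection, which does not match 3 weeks of diet from the same age, and the interval is uncertain. Each library came from a different mouse, so the tests below measure the spread between mice.

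Kupffer cells are the resident macrophages of the liver sinusoids. They arise largely from fetal precursors, renew in place, take up blood-borne bacteria and ageing red cells, and depend on signals from the endothelial, stellate and parenchymal cells around them. Clec4f, Vsig4, Cd5l and Timd4 mark this resident identity in mice. When resident cells are lost, blood monocytes enter and take on parts of the same programme, with Timd4 acquired late. In fatty liver a further state, the lipid-associated macrophage, is marked by Trem2, Gpnmb and Cd9. RNA of whole liver does not separate these cells, and for every class below fewer or more cells of a type and less or more RNA per cell cannot be told apart.

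The libraries held 33274223 to 37390345 reads assigned to genes. Values are normalised counts, each gene's reads divided by 1 factor per library, and they are not corrected for gene length. Gata4 RNA, summed over the whole gene, was 867, 848 and 895 normalised counts in Gata4LKO livers, against 704, 637 and 546 in Control livers (log2 fold change 0.47, SE 0.10, limma adjusted p = 0.0641). The total was not lower in the livers labelled Gata4LKO. A sum over the gene does not tell a deleted transcript from a whole one, so the direction of every result below rests on the labels alone.

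Most macrophage genes had higher values in Gata4LKO livers, and only Ms4a6d passed the test. Of 34 members with a mean of at least 10 normalised counts, 1 was higher and 0 were lower at a limma adjusted p under 0.05, where 1.13% of all genes tested were higher and 0.932% lower (2.06% in either direction). The log2 fold change was above 0 for 31 of the 34 and had a median of 1.21, beside -0.01 over all genes tested. It was at least 1 for 22 members, against 5.0% of all genes. The 3 Gata4LKO values all lay above the 3 Control values for 21 of these members, against 15.0% of all genes, and for 0 members all lay below, against 13.4%. At an unadjusted p under 0.05 26 members were higher and 0 lower, against 13.1% and 9.32% of all genes.

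The count of calls turned on the test and on which mice were included. edgeR's quasi-likelihood test on the recovered reads also called 1 member, where it called 1.13% of all genes higher. DESeq2 on the same reads called 18 higher and 0 lower, where it called 5.97% of all genes higher. The authors' deposited table, whose comparison is not independent of these libraries, has 18 of 35 members higher and 0 lower at an adjusted p under 0.05, against 5.98% of its genes higher. Without Control replicate 2 limma called 15 members higher, against 4.14% of all genes. With library weights it called 9, against 3.59% of all genes. Gata4LKO replicate 1 was the highest of the 6 libraries for 28 of the 34 members, a place it held for 19.7% of all genes. Control replicate 3 was the lowest for 25, against 18.7% of all genes. The members' counts summed to 35775, 20425 and 23394 in Gata4LKO replicates 1, 2 and 3, against 17056, 21752 and 12655 in Control replicates 1, 2 and 3. Control replicate 2 thus held a larger sum than Gata4LKO replicate 2, and the summed level overlapped between the groups. Slc40a1, which other liver cells also express, made up 5220 of the sum in Gata4LKO replicate 2 and 8156 in Control replicate 2. The 13 resident Kupffer genes, which include it, also overlapped in sum. The 12 genes shared by most macrophages, which do not, summed to 6400 to 11520 in Gata4LKO livers and 2194 to 5037 in Control livers.

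**Figure D1:**
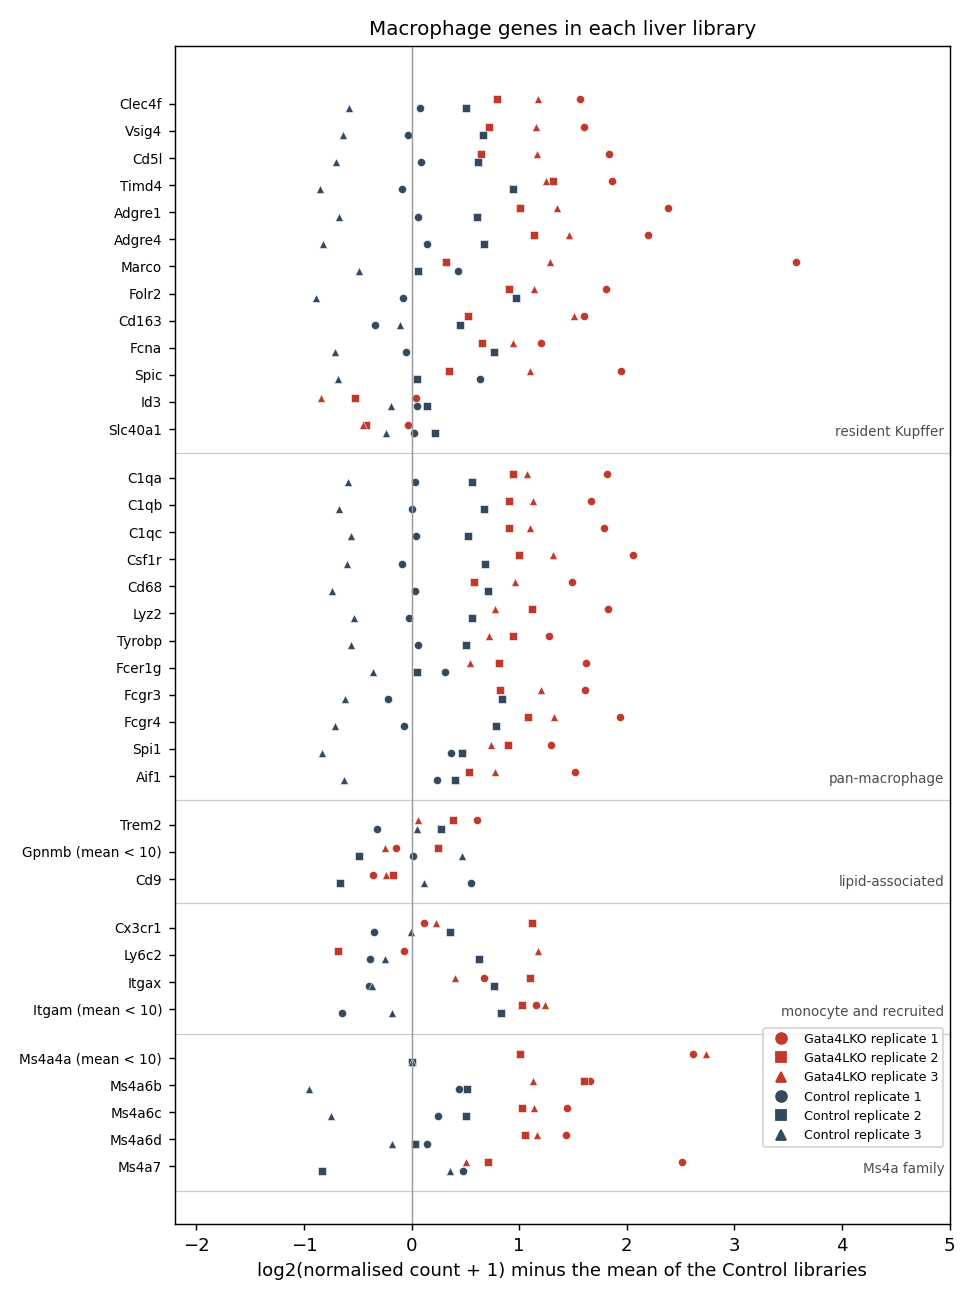
Each of the 37 macrophage genes in each of the 6 libraries, as log2(normalised count + 1) minus the mean of the 3 Control libraries, grouped by class. Gata4LKO points (red) lie to the right of the Control points (dark) for most resident Kupffer, pan-macrophage and Ms4a genes, with Gata4LKO replicate 1 farthest right for 28 of the 34 genes tested, while the lipid-associated genes and most monocyte genes overlap.

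Genes of resident Kupffer cells were higher in the means of Gata4LKO livers for 11 of 13 members, and none passed the test (adjusted p from 0.0757 to 0.275 in limma). The median log2 fold change was 1.21. The 3 Gata4LKO values all lay above the 3 Control values for 7 members, against 15.0% of all genes. Clec4f, the C-type lectin receptor that marks mouse Kupffer cells (chr6:83644542-83656187, minus strand, mm10), had 4038, 2363 and 3072 normalised counts in Gata4LKO livers, against 1435, 1933 and 909 in Control livers (log2 fold change 1.18, SE 0.29, limma adjusted p = 0.0757). All 3 Gata4LKO livers lay above all 3 Control livers, and Control replicate 2 came nearest. Vsig4, a complement receptor that captures bacteria from blood, had 1089, 591 and 798 normalised counts in Gata4LKO livers, against 351, 570.4 and 231 in Control livers (log2 fold change 1.16, SE 0.34, limma adjusted p = 0.108). Cd5l, a secreted scavenger receptor family protein also called AIM, had 4372, 1920.3 and 2757 normalised counts in Gata4LKO livers, against 1308, 1877 and 753 in Control livers (log2 fold change 1.21, SE 0.38, limma adjusted p = 0.12). For both genes the lowest Gata4LKO liver, replicate 2, lay close above the highest Control liver, replicate 2, without overlap.

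Timd4, the phosphatidylserine receptor of long-resident Kupffer cells (chr11:46810800-46844332, plus strand), had 349.8, 239 and 228 normalised counts in Gata4LKO livers, against 89.5, 184 and 52.3 in Control livers (log2 fold change 1.48, SE 0.42, limma adjusted p = 0.101). The groups did not overlap, although Control replicate 2 lay nearer to the Gata4LKO livers than to the other Control livers.

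Marco, a scavenger receptor for bacteria and particles, had 1807, 189 and 370.3 normalised counts in Gata4LKO livers, against 205, 158 and 107 in Control livers (log2 fold change 1.72, SE 0.73, limma adjusted p = 0.221). Its mean rested on Gata4LKO replicate 1, and Gata4LKO replicate 2 lay below Control replicate 1. With Gata4LKO replicate 1 left out, the log2 fold change of Marco was 0.80. Adgre1, which encodes the F4/80 antigen, and Adgre4, a related adhesion receptor, are named here after their values were seen. Adgre1 had 918, 353 and 449.6 normalised counts in Gata4LKO livers, against 183, 268 and 109 in Control livers (log2 fold change 1.58, SE 0.41, limma adjusted p = 0.0858). Adgre4 had 341, 163 and 203 normalised counts in Gata4LKO livers, against 81.3, 117 and 41.1 in Control livers (log2 fold change 1.60, SE 0.41, limma adjusted p = 0.0826), and for neither gene did the groups overlap. Of the rest of the class, Cd163, the haemoglobin scavenger receptor, Folr2, a folate receptor, Fcna, a ficolin of the lectin complement pathway, and Spic, a transcription factor of haem-handling macrophages, had log2 fold changes of 1.21, 1.28, 0.93 and 1.13, and the groups overlapped for all of these but Cd163. Id3, a helix-loop-helix inhibitor needed for Kupffer cell development, and Slc40a1, the iron exporter ferroportin, had negative values of -0.44 (SE 0.21) and -0.30 (SE 0.15) with overlapping groups. Both are also expressed by liver cells other than macrophages, and in Control livers they had the highest levels per kilobase of exon among the members, 783 and 785 normalised counts per kilobase.

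**Figure D2:**
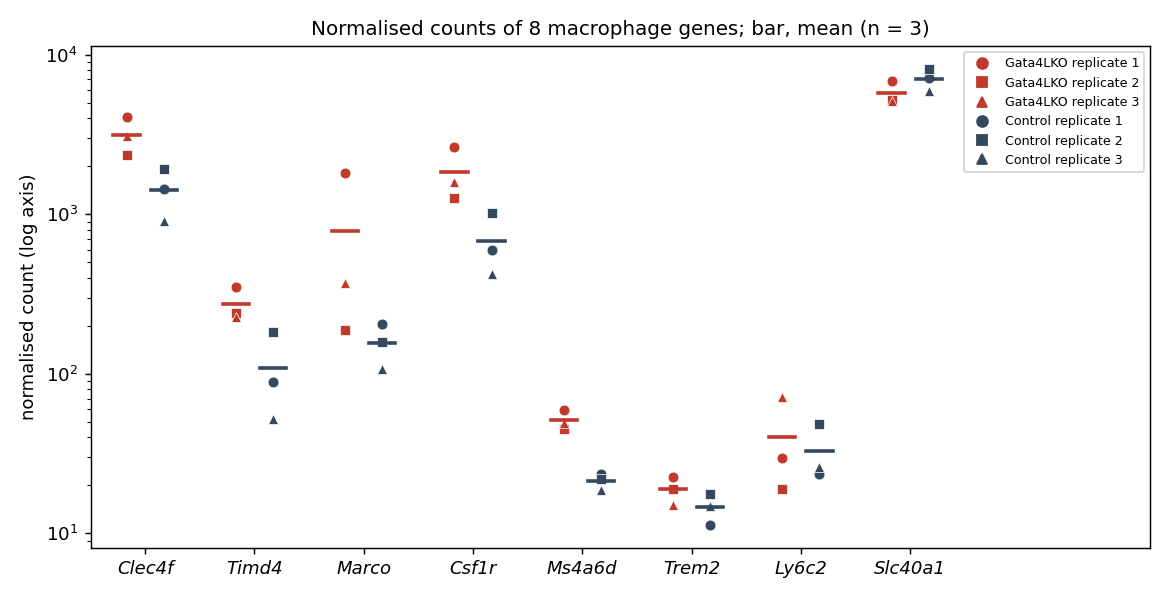
Normalised counts of 8 macrophage genes (log axis) in each library, with a bar at the mean of the 3 livers of a group. The groups are apart for Clec4f, Timd4, Csf1r and Ms4a6d and overlap for Marco, Trem2, Ly6c2 and Slc40a1, and 1 Gata4LKO liver carries the Marco mean.

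Of the 12 genes shared by most macrophages, all 12 had a higher mean in Gata4LKO livers, with log2 fold changes of 0.94 to 1.45 and a median of 1.22. The groups did not overlap for 10, all higher in Gata4LKO livers, against 15.0% of all genes. None passed the test, with limma adjusted p from 0.0757 to 0.176. Every one of the 12 was highest in Gata4LKO replicate 1 and lowest in Control replicate 3. C1qa, C1qb and C1qc encode the chains of C1q, which starts the classical complement pathway, and lie side by side on chromosome 4. C1qa had 2017, 1097 and 1202 normalised counts in Gata4LKO livers, against 586, 844 and 378 in Control livers (log2 fold change 1.27, SE 0.32, limma adjusted p = 0.0805). C1qb had 1645, 968 and 1131 normalised counts in Gata4LKO livers, against 517, 824 and 324 in Control livers (log2 fold change 1.23, SE 0.33, limma adjusted p = 0.0917). C1qc had 1938, 1047 and 1202 normalised counts in Gata4LKO livers, against 577, 804 and 378 in Control livers (log2 fold change 1.26, SE 0.31, limma adjusted p = 0.0757). Over the 6 livers C1qc held 95.3% to 100.1% of the C1qa count, and C1qb held 81.5% to 97.7%.

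Csf1r, the receptor for the growth factors on which macrophages depend, had 2649, 1271 and 1581 normalised counts in Gata4LKO livers, against 601, 1024 and 420.3 in Control livers (log2 fold change 1.45, SE 0.36, limma adjusted p = 0.0777). Its lowest Gata4LKO liver lay above its highest Control liver. Spi1, which encodes the myeloid transcription factor PU.1, had 261, 198 and 177 normalised counts in Gata4LKO livers, against 137, 146 and 58.8 in Control livers (log2 fold change 0.98, SE 0.35, limma adjusted p = 0.157). Control replicate 3 stood lowest for Spi1, and the other Control livers lay nearer to the Gata4LKO livers than to it. The Fc receptors Fcgr3 and Fcgr4, the signalling adaptors Tyrobp and Fcer1g, the lysozyme gene Lyz2, the lysosomal protein gene Cd68 and the actin-bundling gene Aif1 had log2 fold changes of 1.21, 1.45, 0.98, 0.99, 1.24, 1.01 and 0.94. Among these the groups overlapped for Fcgr3 and Cd68. In a count of shared 50-base stretches of the annotated transcripts, 15.4% of those of Lyz2 also occurred in Lyz1 and 9.58% of those of Fcgr3 in Fcgr2b, so reads of these pairs may have been divided between them.

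The core letters bound by PU.1, the product of Spi1, were looked for in the members' promoters. RefSeq (GRCm38.p6) gave a window of 250 bases before to 50 after the transcript start for 30 of the 37. GAGGAA, on either strand, occurred in 16 of these (53.3%), beside 28.3% of 27025 gene promoters of the same length. By class it was found in 6 of 11 resident Kupffer promoters, 6 of 8 pan-macrophage promoters, 1 of 3 lipid-associated, 2 of 4 monocyte and 1 of 4 Ms4a promoters. The E-box CACGTG, read by MITF family factors, occurred in 0 of 30 members and in 7.24% of gene promoters. The GATA core AGATAA, on either strand, occurred in 2 of 30 (Adgre4 and Itgax) and in 11.4% of gene promoters. No motif contains another, and a match is a description of the letters, not a binding site. The 250 bases before the start are given 5′ to 3′ on the gene's strand, with GAGGAA or its reverse complement TTCCTC in capitals, for 3 members with a match whose groups did not overlap in expression (Vsig4, C1qb and Fcgr4), for Timd4, which did not overlap either and had no match, and for Trem2, which had a match and overlapping groups. These were chosen after their values were seen.
Vsig4, chrX:96293439-96293688, minus strand: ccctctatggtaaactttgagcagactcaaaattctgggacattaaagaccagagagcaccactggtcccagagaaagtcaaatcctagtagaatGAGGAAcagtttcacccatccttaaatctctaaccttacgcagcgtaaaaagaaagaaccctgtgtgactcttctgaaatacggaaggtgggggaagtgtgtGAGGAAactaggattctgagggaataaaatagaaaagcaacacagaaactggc
Timd4, chr11:46810549-46810798, plus strand: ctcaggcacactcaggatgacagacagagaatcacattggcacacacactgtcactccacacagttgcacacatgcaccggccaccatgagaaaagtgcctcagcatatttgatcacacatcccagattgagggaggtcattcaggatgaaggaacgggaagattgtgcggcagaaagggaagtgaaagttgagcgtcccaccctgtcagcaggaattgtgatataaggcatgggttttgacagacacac
C1qb, chr4:136886201-136886450, minus strand: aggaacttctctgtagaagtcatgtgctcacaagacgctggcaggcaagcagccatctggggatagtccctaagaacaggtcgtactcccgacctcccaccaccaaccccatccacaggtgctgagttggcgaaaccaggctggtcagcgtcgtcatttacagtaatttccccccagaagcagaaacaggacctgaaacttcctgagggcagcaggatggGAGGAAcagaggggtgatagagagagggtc
Fcgr4, chr1:171018676-171018925, plus strand: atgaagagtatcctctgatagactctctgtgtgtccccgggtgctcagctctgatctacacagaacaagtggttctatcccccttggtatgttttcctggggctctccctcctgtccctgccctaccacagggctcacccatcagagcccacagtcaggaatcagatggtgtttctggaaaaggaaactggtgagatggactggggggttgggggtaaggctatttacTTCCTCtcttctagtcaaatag
Trem2, chr17:48346151-48346400, plus strand: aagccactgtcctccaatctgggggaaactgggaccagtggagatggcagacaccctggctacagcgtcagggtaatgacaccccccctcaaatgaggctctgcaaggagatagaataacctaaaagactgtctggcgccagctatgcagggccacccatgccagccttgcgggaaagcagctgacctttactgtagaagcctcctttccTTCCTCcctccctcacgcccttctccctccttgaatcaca
The matches began 155 and 53 bases before the start in Vsig4, 30 in C1qb, 22 in Fcgr4 and 40 in Trem2.

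Of the genes of lipid-associated macrophages neither tested member passed, and both overlapped between the groups. Trem2, the lipid-sensing receptor that defines these cells and signals through Tyrobp, had 22.5, 19.1 and 15.1 normalised counts in Gata4LKO livers, against 11.3, 17.7 and 14.9 in Control livers (log2 fold change 0.35, SE 0.32, limma adjusted p = 0.564). Its groups overlapped, and Control replicate 2 lay above Gata4LKO replicate 3. Cd9, a tetraspanin also made by other liver cells, had 241, 274 and 263 normalised counts in Gata4LKO livers, against 454, 194 and 335 in Control livers (log2 fold change -0.25, SE 0.28, limma adjusted p = 0.643). Its highest and its lowest value were both in Control livers. Gpnmb, a lysosomal glycoprotein, was below the mean of 10 needed for the test, with 27 reads in all over the 3 Gata4LKO livers and 29 over the 3 Control livers.

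Genes of monocytes and recruited cells were few in reads and overlapped between the groups wherever they were tested. Ly6c2, the Ly6C antigen of classical monocytes, had 29.7, 19.1 and 71.8 normalised counts in Gata4LKO livers, against 23.7, 48.8 and 26.2 in Control livers (log2 fold change 0.14, SE 0.50, limma adjusted p = 0.905). The highest and the lowest liver were both Gata4LKO. Of its 50-base stretches 14.4% occurred in another gene, nearly all of them in Ly6c1, which endothelium expresses. Cx3cr1, the fractalkine receptor, had 24.5, 50.2 and 26.4 normalised counts in Gata4LKO livers, against 17.5, 29.1 and 22.4 in Control livers (log2 fold change 0.49, SE 0.35, limma adjusted p = 0.46). Itgax, which encodes CD11c, had 18.4, 25.1 and 15.1 normalised counts in Gata4LKO livers, against 8.23, 19.7 and 8.41 in Control livers (log2 fold change 0.73, SE 0.42, limma adjusted p = 0.353). Control replicate 2 lay above 1 or more Gata4LKO livers for all of Ly6c2, Cx3cr1 and Itgax. Itgam, which encodes CD11b, was below the filter and had 40 reads over the Gata4LKO livers and 18 over the Control livers. Its reads were 13, 12 and 15 in Gata4LKO livers, against 3, 10 and 5 in Control livers, and the normalised counts did not overlap. Of its 50-base stretches 66.3% were shared with the annotated gene Gm49368.

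The Ms4a genes encode small proteins with membrane-spanning segments, and the members studied here are clustered on chromosome 19. All 4 tested members had higher means in Gata4LKO livers, and Ms4a6d rose. The groups did not overlap for any of these 4, where 15.0% of all genes were higher without overlap, and Ms4a7 was apart by a gap within counting error. Ms4a6d (chr19:11586604-11604849, minus strand) had 59.3, 45.2 and 49.1 normalised counts in Gata4LKO livers, against 23.7, 21.8 and 18.7 in Control livers. Its means were 51.2 ± 7.30 in Gata4LKO livers and 21.4 ± 2.52 in Control livers (SD, n = 3 each), a ratio of means of 2.39. On the log2(normalised count + 1) scale of the test the fold change was 2.33 (log2 fold change 1.22, SE 0.23, limma adjusted p = 0.0481). The 3 values of each group lay close together, and its log2 fold change was close to the median of the members. It passed the test in 9 of the 17 alternatives that tested it, with adjusted p from 0.0093 to 0.155, so the call lay at the edge of the threshold. With 1 liver left out it held only without Control replicate 2. Ms4a6b had 56.3, 54.2 and 38.7 normalised counts in Gata4LKO livers, against 23.7, 24.9 and 8.41 in Control livers (log2 fold change 1.46, SE 0.43, limma adjusted p = 0.107). Ms4a6c had 89.0, 66.3 and 71.8 normalised counts in Gata4LKO livers, against 38.1, 45.7 and 18.7 in Control livers (log2 fold change 1.21, SE 0.34, limma adjusted p = 0.101). For both genes Control replicate 3 was the lowest liver and the groups stood apart. Of the 50-base stretches of Ms4a6c, 10.5% occurred in other genes, against 2.54% for Ms4a6d. Ms4a7 had 40.9, 11.0 and 9.45 normalised counts in Gata4LKO livers, against 9.26, 3.12 and 8.41 in Control livers (log2 fold change 1.24, SE 0.64, limma adjusted p = 0.297), and its mean rested on Gata4LKO replicate 1. Its groups were nearest at 10 reads in Gata4LKO replicate 3 against 9 in Control replicate 1. Ms4a4a was below the filter, with 12 reads over the Gata4LKO livers (5, 1 and 6) and 0 over the Control livers. With the Gata4LKO reads taken as exact and Control set at a floor of 3 counts over the group, it was at least 3.93-fold higher. This bound leaves out the counting error of the Gata4LKO reads and the spread between mice.

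The classes were set against one another in each liver by the mean of log2(normalised count + 1) over the tested members of a class, less the mean of the Control livers, with no test. The resident Kupffer level was 1.66, 0.57 and 0.94 in Gata4LKO livers, against 0.07, 0.51 and -0.58 in Control livers, a difference in means of 1.06. The pan-macrophage level was 1.66, 0.88 and 0.97 in Gata4LKO livers, against 0.06, 0.56 and -0.62 in Control livers, a difference of 1.17. The Ms4a level was 1.76, 1.10 and 0.99 in Gata4LKO livers, against 0.33, 0.05 and -0.38 in Control livers, a difference of 1.28. The 3 Gata4LKO livers lay above the 3 Control livers in all of these classes, with Gata4LKO replicate 2 and Control replicate 2 nearly level for the resident genes. The resident level includes Id3 and Slc40a1, which other liver cells also express and whose log2 fold changes were negative (-0.44 and -0.30). No resident level without these genes was computed. The monocyte level was 0.24, 0.51 and 0.60 in Gata4LKO livers, against -0.38, 0.58 and -0.21 in Control livers, a difference of 0.45 with overlap, over 3 genes. The lipid-associated level was 0.13, 0.10 and -0.09 in Gata4LKO livers, against 0.11, -0.20 and 0.08 in Control livers, a difference of 0.05 with overlap, over 2 genes.

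Of the 10 pairs of classes, the within-liver difference in level overlapped between the groups for 8 and did not for 2. The resident level minus the lipid-associated level was 1.53, 0.47 and 1.03 in Gata4LKO livers, against -0.04, 0.71 and -0.67 in Control livers, and Control replicate 2 lay above Gata4LKO replicate 2. The resident level minus the monocyte level was 1.42, 0.06 and 0.34 in Gata4LKO livers, against 0.45, -0.07 and -0.38 in Control livers, again with overlap. The resident level minus the pan-macrophage level was 0.00, -0.31 and -0.03 in Gata4LKO livers, against 0.01, -0.05 and 0.03 in Control livers. These contrasts of the resident class all overlapped between the groups, and all include Id3 and Slc40a1 in the resident level. The pairs without overlap were both set against the lipid-associated class, whose level rests on Trem2 and Cd9 alone. The pan-macrophage level minus the lipid-associated level was 1.53, 0.77 and 1.06 in Gata4LKO livers, against -0.06, 0.76 and -0.70 in Control livers, where Gata4LKO replicate 2 lay just above Control replicate 2. The Ms4a level minus the lipid-associated level was 1.64, 0.99 and 1.07 in Gata4LKO livers, against 0.21, 0.25 and -0.46 in Control livers. No test was made of any of these contrasts.

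**Figure D3:**
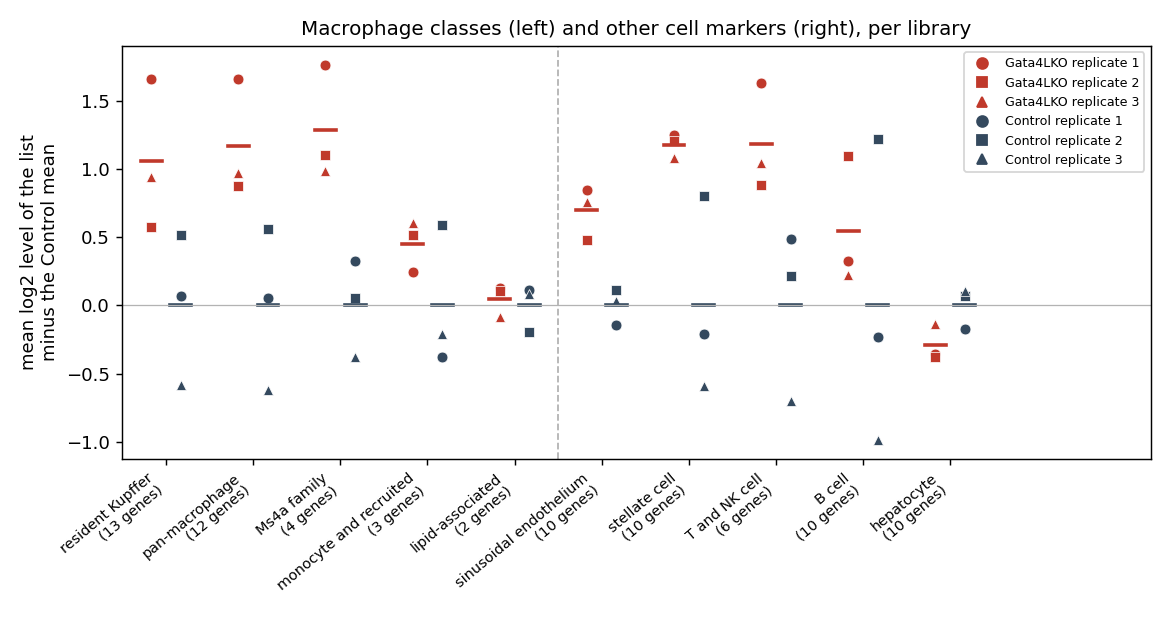
Mean log2 level of each macrophage class (left of the dashed line) and of marker lists of other liver cells (right) in each library, minus the mean of the Control livers, with a bar at the mean of each group (n = 3). Resident Kupffer, pan-macrophage and Ms4a levels are higher in the Gata4LKO livers without overlap, as are the sinusoidal endothelial, stellate and T and NK cell markers, while monocyte and lipid-associated levels overlap.

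Each of the other 33 tested members was divided by Clec4f, the Kupffer cell marker, in the same liver. The proportion overlapped between the groups for 28, was higher without overlap for 2 (Adgre1 and Adgre4) and was lower for 3 (Fcna, Id3 and Slc40a1). Over all other genes tested 0.341% were higher and 72.2% lower in this sense, Clec4f itself being higher in each Gata4LKO liver. The genes given below were chosen after their values were seen, and no test was made. Relative to Clec4f, Vsig4 was 26.98, 25.02 and 25.98% in Gata4LKO livers, against 24.4, 29.5 and 25.4% in Control livers. Timd4 was 8.66, 10.1 and 7.41% in Gata4LKO livers, against 6.24, 9.51 and 5.76% in Control livers. Both proportions overlapped between the groups. Adgre1 was 22.7, 14.95 and 14.6% in Gata4LKO livers, against 12.8, 13.9 and 12.02% in Control livers, and Adgre4 was 8.43, 6.88 and 6.61% in Gata4LKO livers, against 5.66, 6.07 and 4.52% in Control livers. These proportions were higher in every Gata4LKO liver than in any Control liver. Fcna was 30.95, 36.1 and 34.04% in Gata4LKO livers, against 36.4, 47.7 and 36.4% in Control livers, lower in every Gata4LKO liver by a narrow gap between Gata4LKO replicate 2 and Control replicate 3. The proportion of Marco was 44.8, 7.99 and 12.1% in Gata4LKO livers, against 14.3, 8.17 and 11.8% in Control livers, so that the excess of Marco in Gata4LKO replicate 1 was larger than that of Clec4f. Trem2 was 0.557, 0.807 and 0.492% in Gata4LKO livers, against 0.789, 0.913 and 1.64% in Control livers. Ly6c2 was 0.735, 0.807 and 2.34% in Gata4LKO livers, against 1.65, 2.53 and 2.88% in Control livers. These low-count proportions overlapped, with the highest value of each in a Control liver.

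**Figure D4:**
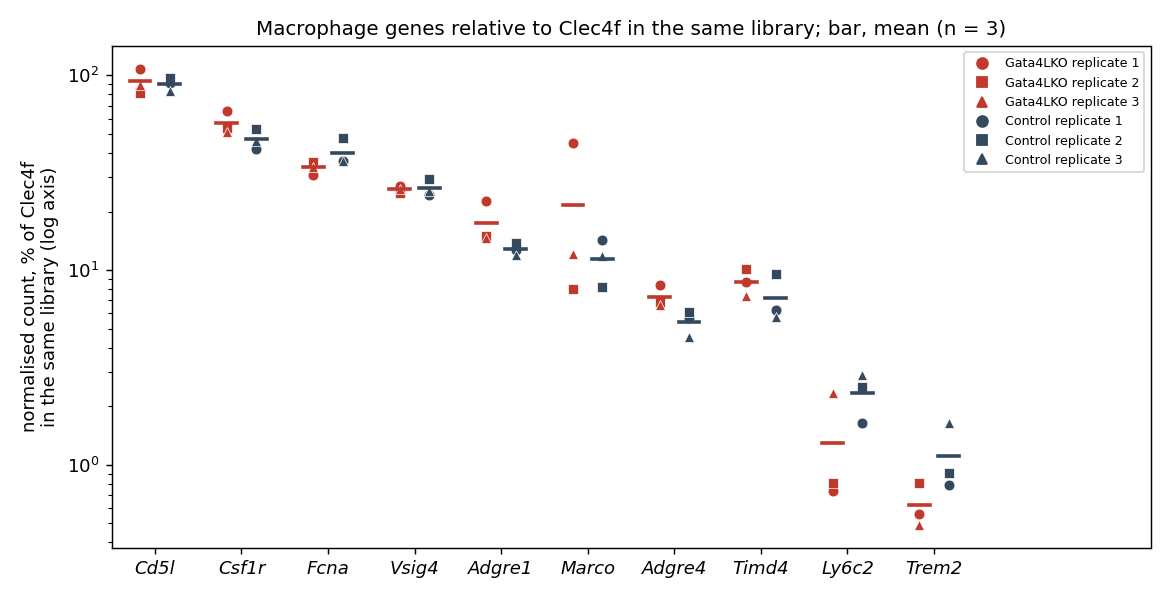
Normalised count of 10 macrophage genes as a percentage of Clec4f in the same library (log axis), with a bar at the mean of each group (n = 3). Adgre1 and Adgre4 are higher and Fcna is lower in all Gata4LKO livers, and the other genes overlap between the groups, Marco with 1 Gata4LKO liver far above the rest.

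Levels between genes were compared per kilobase of exon. The length used was that of all annotated exons of a gene merged, which may exceed the transcript expressed and then understates the gene. It was 1040 bases for C1qa, 1931 for C1qc and 4946 for Trem2. C1qc, with nearly the count of C1qa, thus stood at 723 in Gata4LKO livers. In Gata4LKO livers the most abundant members by mean normalised count per kilobase were Cd5l (1482), C1qa (1383), Clec4f (1278) and C1qb (1147). In Control livers these same genes stood at 645, 579.6, 577 and 510.2, below Slc40a1 and Id3. The lipid-associated gene Trem2 stood at 3.82 in Gata4LKO livers and 2.96 in Control livers, and Itgax stood at 4.07 in Gata4LKO livers and 2.52 in Control livers. Among the members, the highest levels per kilobase in both groups were those of resident and shared genes. These classes hold 13 and 12 of the 37 members, and Slc40a1 and Id3 are also expressed by other liver cells. The ranking therefore describes the listed genes in whole liver and not the make-up of its macrophages.

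Markers of sinusoidal endothelial, stellate, T and NK cells were also higher in the means of Gata4LKO livers, and their part in the results was not tested. Of 10 sinusoidal endothelial markers, 5 rose and none fell, against 1.13% and 0.932% of all genes tested. Their median log2 fold change was 0.73. Their summed counts were 10631 to 12969 in Gata4LKO livers and 6852 to 8223 in Control livers. Dnase1l3 (log2 fold change 0.69, SE 0.09, limma adjusted p = 0.016) and Clec4g (log2 fold change 0.76, SE 0.12, limma adjusted p = 0.0285) were the members of smallest p. Of 10 stellate cell markers 0 passed, with a median of 1.19. All 10 were higher in Gata4LKO livers without overlap, against 15.0% of all genes. Stellate sums were 15332 to 18037 in Gata4LKO livers and 4865 to 12983 in Control livers. Of 6 tested T and NK cell markers none passed, with a median of 1.004 and summed counts of 191 to 242 in Gata4LKO livers and 97.1 to 122 in Control livers. Of 10 hepatocyte markers 1, Serpina1a, fell (log2 fold change -0.44, SE 0.07, limma adjusted p = 0.0369), where 0.932% of all genes fell. Hepatocyte sums were 2807083 to 3273267 in Gata4LKO livers and 3566165 to 4616140.3 in Control livers. Their mean log2 level overlapped, at -0.36, -0.38 and -0.14 in Gata4LKO livers, against -0.17, 0.07 and 0.10 in Control livers. Of the 10, 4 were lower without overlap and 1 higher, against 13.4% and 15.0% of all genes. Every marker in the table was detected in at least 1 library. Against the sinusoidal endothelial level of the same liver, the resident Kupffer level overlapped between the groups, with a difference in means of 0.36. Against the stellate level this difference was -0.12, also with overlap. The resident level here includes Id3 and Slc40a1, which other liver cells express and whose log2 fold changes were negative. No resident level without these genes was computed, so the sign of -0.12 may rest on them. The pan-macrophage level, which includes neither, differed by 0.47 and -0.0061 against the same markers, with overlap.

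Dendritic cell, B cell and neutrophil markers gave no calls (6, 10 and 2 tested), with medians of 0.55, 0.32 and 0.69. Cholangiocyte, mesothelial and blood markers also gave none, with medians of -0.50, -0.67 and 0.05. Summed blood markers were 6061 to 7757 in Gata4LKO livers and 5610.1 to 9327 in Control livers and overlapped.

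Other genes of the macrophage pathways were counted from lists chosen with earlier results of these livers known. Of 25 further surface and phagocytic genes 2 rose and none fell, against 1.13% and 0.932% of all genes tested. All 25 had positive log2 fold changes, and the median was 1.13. The genes that rose were Cd38, an NAD-consuming ectoenzyme (log2 fold change 0.98, SE 0.15, limma adjusted p = 0.028), and Fcgr2b, the inhibitory Fc receptor, which is also one of the endothelial markers (log2 fold change 0.52, SE 0.09, limma adjusted p = 0.0376). Mrc1, the mannose receptor, had a log2 fold change of 0.86 (adjusted p = 0.0536, limma), and Mertk, a receptor for dying cells, had 0.38 (adjusted p = 0.0585, limma). Of 14 signalling genes downstream of Tyrobp and Fcer1g none passed, with a median of 0.99. Lcp2, the adaptor SLP-76, had 1.44 and the kinase gene Fgr 1.17. The adaptor gene Blnk, prominent in B cells, had -1.08, the only negative value of the 14. Of the 14, 9 were higher without overlap and 1, Blnk, was lower, against 15.0% and 13.4% of all genes. The 10 B cell markers all had positive log2 fold changes.

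Of 14 further genes of lipid-associated macrophages 2 rose, Lpl, lipoprotein lipase (log2 fold change 1.28, SE 0.19, limma adjusted p = 0.027), and Plin2, the coat protein of lipid droplets (log2 fold change 1.01, SE 0.18, limma adjusted p = 0.0385). Over all genes tested 1.13% rose in the same test. Plin2 is also abundant in hepatocytes. The median log2 fold change of the list was 0.39, with 10 of the 14 values positive and 4 negative. It was at least 1 for 4 of the 14, against 5.0% of all genes. Of the 14, 5 were higher in Gata4LKO livers without overlap and 0 lower, against 15.0% and 13.4% of all genes. Spp1, osteopontin, had the lowest value of the 14, -0.21, with overlapping groups. Of 12 transcription factors of Kupffer cells none passed, with a median of 0.09. Zeb2, which maintains tissue identity of macrophages, had 720.1, 664 and 622 normalised counts in Gata4LKO livers, against 317, 484 and 250.3 in Control livers (log2 fold change 0.98, SE 0.22, limma adjusted p = 0.0671), without overlap. Nr1h3, the oxysterol receptor LXRα that Kupffer cell identity requires and that hepatocytes also express, had -0.07 (SE 0.06).

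Of 11 niche signals none passed, with a median of 0.71. For 7 the Gata4LKO values all lay above the Control values, against 15.0% of all genes. Bmp2 (log2 fold change 0.71, SE 0.14, limma adjusted p = 0.0535), Gdf2, the stellate cell ligand BMP9 (log2 fold change 1.14, SE 0.27, limma adjusted p = 0.0721), and Vcam1, an adhesion molecule for leukocytes (log2 fold change 1.51, SE 0.36, limma adjusted p = 0.0744), lay nearest the threshold. Of 9 further monocyte genes none passed, with a median of 0.86, and Plac8 and Treml4 had 0.89 and 1.19. Of the 9, 4 were higher in Gata4LKO livers without overlap and 0 lower, against 15.0% and 13.4% of all genes. Of 11 genes of haem and iron recycling none passed, with a median of -0.08, and Slc11a1, the phagosomal metal transporter, had 1.23 (SE 0.37). Of 6 inflammatory cytokine genes tested none passed, and Il1b had 66.5, 37.1 and 31.2 normalised counts in Gata4LKO livers, against 16.5, 30.1 and 5.60 in Control livers (log2 fold change 1.51, SE 0.58, limma adjusted p = 0.179).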

How the data were processed

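RNA of frozen liver was extracted with TRIzol and RNeasy columns and made into stranded libraries after mRNA capture, per the labels' protocols. FastQC, STAR 2.6.0c, DESeq2 and build mm10 are named per the submitters' processing notes. How reads were counted (tool, strand, annotation) is not given in the sources used here. The deposited signal is a normalised gene count, scaled by the authors with a single factor in each library. The smallest step of a column is worth 1 read, and in units of it 100% of values were whole (tolerance 0.1), which recovered the reads. The authors' deposited table of log2 fold changes, standard errors and adjusted p-values was quoted only where named. No 2 of the 6 libraries agreed within counting noise (chi-square per degree of freedom 28.2 or more over the 15 pairs). Replicates were numbered in accession order and pair no mice, and the labels give no batch.

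The test was limma 3.58.1 with an intensity trend (R 4.3.3) on log2(deposited value + 1), over the 14385 genes of 24501 with a mean of at least 10, 2-sided, adjusted by Benjamini-Hochberg over all genes tested. Fold changes are on that scale, which understates low genes. edgeR 4.0.16 and DESeq2 1.42.0 were run on the recovered reads as alternatives. Other alternatives changed the pseudocount, filter, scaling, trend and weights, or left out each liver. Levels relative to endothelial and stellate markers were added after seeing the data. The members, their classes and all lists were chosen with earlier results of these data known. Named in full were members past the test, the first 3 tested of each class and a set list (Clec4f, Timd4, Marco, Trem2, Gpnmb, Ly6c2, Itgax, C1qa, Csf1r and Spi1), and of other lists up to 4 genes of smallest p. Others are said where they appear to have been chosen after their values were seen, as were Id3, Slc40a1, Cd163, Spp1 and Nr1h3. Gene positions and exon lengths come from GENCODE (GRCm38).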

Additional observations from a re-analysis of the deposited data

How the results depend on the processing

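Of 605 checks of single members under the alternatives, 553 kept their direction and their side of the threshold, 8 lost a call, 40 gained one and 4 reversed. The count of members higher in Gata4LKO livers, 1 as reported, was 0 with no filter, with a mean of at least 50 (which leaves Ms4a6d untested), with quantile normalisation and with no intensity trend. It was 9 with library weights, where 3.59% of all genes were higher, and 18 with DESeq2. Leaving out 1 liver at a time gave 0 to 15, with 15 without Control replicate 2, 1 (Cd163 in place of Ms4a6d) without Gata4LKO replicate 2, where 0.473% of all genes were higher, and 0 without each of the others. The count lower was 0 under every alternative run, DESeq2 and edgeR included. Ly6c2 (0.14 as reported) reversed to -0.041 under quantile normalisation and ranged from -0.38 to 0.55 with 1 liver left out, and Cd9 (-0.25) ranged from -0.59 to 0.021. The cause was not tested. The lipid-associated level moved to -0.25 at a mean of at least 50, where Cd9 alone remains, and the monocyte level has no value there. With no filter, which adds Itgam, the difference between groups in the monocyte level was 0.62 in place of 0.45. Levels relative to the sinusoidal endothelial markers were 0.36 (resident Kupffer), 0.47 (pan-macrophage), -0.65 (lipid-associated), -0.24 (monocyte) and 0.59 (Ms4a). Relative to the stellate markers they were -0.12, -0.0061, -1.13, -0.72 and 0.11 in the same order of classes. The resident values include Id3 and Slc40a1, which other liver cells also express, and were not computed without these genes. The median over all genes moved between -0.0294 and 0.038 across scalings. No paired analysis was possible because the labels give each mouse its own animal number and no shared replicate numbers. Gpnmb, Itgam and Ms4a4a had too few reads to enter the test.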

Other observations

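The 3 C1q chains, with limma log2 fold changes of 1.27 (C1qa), 1.26 (C1qc) and 1.23 (C1qb), were split by the adjusted p in the authors' deposited table. C1qa (log2 fold change 1.26, SE 0.29, adjusted p = 0.00063) and C1qc (log2 fold change 1.25, SE 0.28, adjusted p = 0.000422) passed in the authors' deposited table, and C1qb (log2 fold change 1.17, SE 0.44, adjusted p = 0.0757) did not. The standard error listed for C1qb in the authors' deposited table was larger than those of its neighbours, while limma gave 0.32, 0.31 and 0.33 for C1qa, C1qc and C1qb, and DESeq2 run on the recovered reads gave C1qb an adjusted p of 0.00347. The cause was not tested.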
